A study of Homo sapiens with 6 samples.

Results

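Oxidative phosphorylation is carried out by 5 protein complexes of the inner mitochondrial membrane, and the genes for these complexes were followed here in LX-2, a human line of hepatic stellate cells. Members were taken by symbol, as every listed gene whose name starts with NDUFA, NDUFB, NDUFC, NDUFS, NDUFV, SDHA to SDHD, UQCR, COX4I, COX5, COX6, COX7, COX8 or ATP5, and the 13 protein-coding genes of the mitochondrial genome. The rule found 116 of the 22701 genes listed: 97 nuclear coding genes, the 13 mitochondrial ones, and 6 antisense or divergent transcripts that carry a member's name (NDUFA6-DT, NDUFB2-AS1, NDUFV1-DT, NDUFV2-AS1, UQCRB-AS1 and UQCRFS1-DT). The nuclear coding members were 37 subunits of complex I, 4 of complex II, 9 of complex III, 16 of complex IV and 19 of complex V, with 8 assembly factors of complex I (NDUFAF genes) and 4 of complex II (SDHAF genes). Subunits were counted by symbol. They thus include ATP5IF1, an inhibitor of complex V, COX7A2L, a factor of supercomplex assembly, and UQCRHL, a copy of the subunit gene UQCRH. Of the 116, 104 had a mean level of at least 1 FPKM (fragments scaled by the length of the gene and by the total of the library) and were tested: 79 nuclear subunits, all 12 assembly factors and all 13 mitochondrial genes.

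Cells of all 6 libraries had received TGF-β, the cytokine that activates stellate cells, at a labelled 5 µg/mL, and cells of 3 of the libraries also received 20 µM ligustilide (LIG), a phthalide of Angelica and Ligusticum roots. The description of the series says the cells were transfected with these agents, gives no duration, and does not say whether the 3 replicates of a group were separate cultures, so a p-value here reflects no more than the spread among these libraries. Cells without TGF-β were not analysed here, so each value below compares TGF-β plus LIG with TGF-β alone in 1 cell line. Per-library values follow the order of replicates 1, 2 and 3.

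Complexes I to IV pass electrons from NADH and succinate to oxygen, and complexes I, III and IV pump protons as they do so. Complex V, the ATP synthase, lets the protons flow back and makes ATP. Most subunits are encoded in the nucleus and imported, while a small set at the core of complexes I, III, IV and V is encoded by mitochondrial DNA, which is transcribed as long polycistronic RNAs, so that each of these complexes needs the products of both genomes. Activated stellate cells produce collagen at a high rate and draw on both glycolysis and respiration for it.

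The fragments recovered from the FPKM values summed to between 38233140 and 39079527 in a library, and a tested member held a median of 2665 fragments in a library and never fewer than 62. The sum of FPKM over all genes was highest in LIG replicate 3 (362034) and TGF-β replicate 2 (348518), with 324022 to 328949 in the other 4 libraries, and these 2 libraries are shown apart below. Of 11 stellate cell markers listed, 9 had a mean of at least 1 FPKM (summed level 3300 to 3480 FPKM under TGF-β and 2910 to 3280 with LIG), whereas DES and RELN, both named as stellate markers in tissue, were under 0.1. Markers of other liver cells were low: hepatocyte markers (1 of 3 at 1 FPKM or more) summed to between 3.3 and 4.88 FPKM, macrophage markers (1 of 4) to between 12.1 and 14.9, cholangiocyte markers (1 of 3) to between 1.12 and 2.14, and none of 4 endothelial or 3 mesothelial markers reached 1 (sums of at most 0.325 and 0.812). CYP3A4, CD163, PTPRC, CDH5 and EPCAM were under 0.1.

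No gene of the 5 complexes passed the test between LIG and TGF-β. In limma on log2(FPKM + 1), with Benjamini-Hochberg adjustment over all genes tested, 0 of the 104 members passed an adjusted p of 0.05, where 74 of the 10695 genes tested did (0.692%; 20 higher with LIG, 0.187%, and 54 lower, 0.505%). A count of 0 lies near that background and is not in itself a result about these genes. At an unadjusted p under 0.05 there were 2 members, NDUFAF4 and UQCRHL, against 8.41% of all genes, and limma voom on fragments recovered from the FPKM values gave 0 members (background 0.72% of genes), with 1 at an unadjusted p under 0.05. For a single gene the smallest p of an exact permutation test is 0.1 in this design, so members were tested only through this model.

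The data bound the size of each difference. The 95% interval of the LIG minus TGF-β difference (limma, unadjusted) stayed within 0.58 on the log2 scale, or 1.5-fold, in either direction for 104 of the 104 members, and for 10413 of the 10695 genes tested. Over the members the median interval reached 0.28 to each side of the estimate, and the estimates ran from -0.12 (NDUFAF3) to 0.24 (NDUFAF4). Their median was 0.05, beside 0.03 over all genes tested, and 85 of 104 were above 0, as were 6508 of the 10695. For genes of low FPKM a difference on this scale is smaller than the change itself. In bulk RNA fewer cells of a type and less RNA per cell cannot be told apart.

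**Figure D1:**
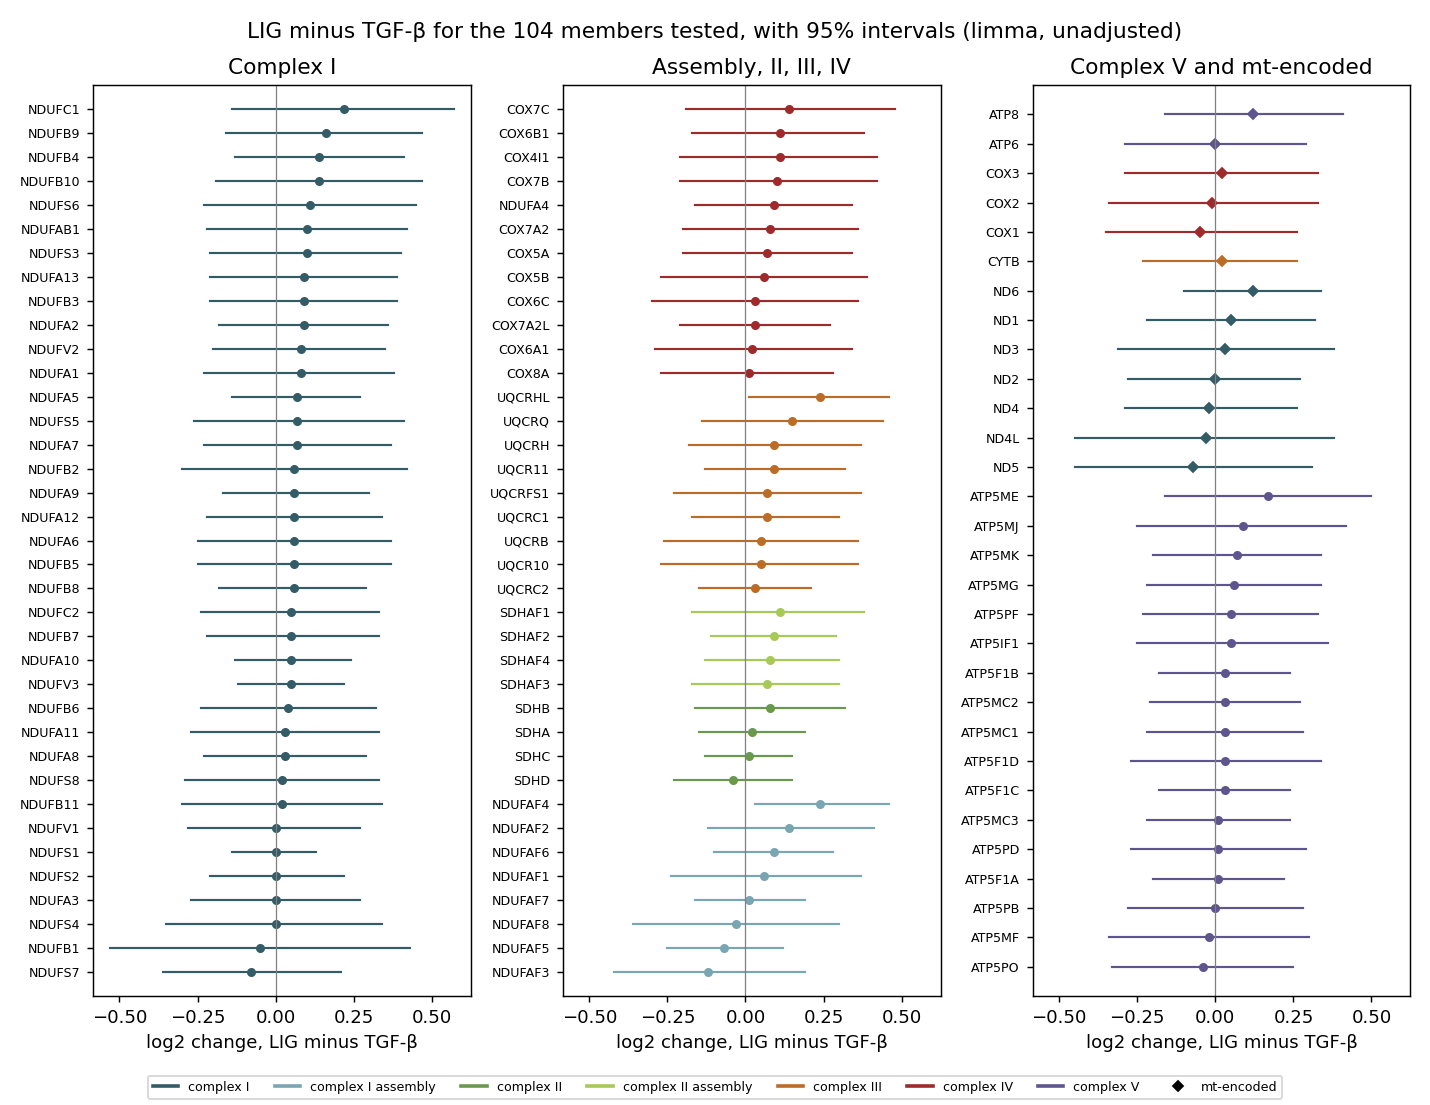
Difference between LIG and TGF-β for each of the 104 members tested, in log2(FPKM + 1) on the horizontal axis, coloured by complex, with diamonds for mitochondrially encoded genes and bars for limma's unadjusted 95% interval. The intervals of NDUFAF4 and UQCRHL lie above 0, the other 102 cross it, and no interval reaches 0.58 in either direction.

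By genome, the summed level of nuclear subunits was 5009, 6082 and 5333 FPKM under TGF-β and 5198, 5215 and 6804 with LIG, and the groups overlapped. The means were 5475 ± 550 and 5739 ± 922 FPKM (SD, n = 3 each), a ratio of 1.05. The 13 mitochondrial genes summed to 35169, 37184 and 34953 FPKM under TGF-β and to 33580, 37030 and 37020 with LIG, a ratio of 1.00 between means of 35769 ± 1230 and 35876 ± 1990. They took between 10.2% and 11.3% of all FPKM and, at lengths of 207 to 1812 bases, 3.13% to 3.49% of fragments. The nuclear sum, as a share of the mitochondrial one, was 14.2%, 16.4% and 15.3% with TGF-β and 15.5%, 14.1% and 18.4% with LIG. The highest share of each group was in the library that stood apart.

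The median difference of LIG from TGF-β was 0.06 over the 37 subunits of complex I, 0.02 over the 4 of complex II, 0.07 over the 9 tested of complex III, 0.07 over the 12 of complex IV and 0.03 over the 17 of complex V. It was 0.04 over the complex I assembly factors, 0.09 over those of complex II and 0.00 over the 13 mitochondrial genes (7 of 13 above 0, from -0.07 to 0.12). These class medians carry no test, since subunits measured in the same libraries are not replicates. The small positive median over the nuclear subunits depended on the libraries used: it was 0.06 with all 6 libraries and -0.06 without LIG replicate 3, and with that library and TGF-β replicate 2 both left out it was 0.01. Without LIG replicate 3 the medians were -0.06, -0.02, -0.03, -0.05 and -0.07 for complexes I to V, and that of complex II was also -0.01 after quantile normalization. With library quality weights the median was -0.01 over the nuclear subunits, -0.01 for complex I and -0.02 for complex V, and without TGF-β replicate 1 that of complex V was -0.03.

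The nuclear subunits varied together from library to library. In TGF-β replicate 2, 79 of the 79 tested nuclear subunits were above the mean of TGF-β replicates 1 and 3, by a median of 0.23 on the log2 scale. LIG replicate 3 was above the mean of LIG replicates 1 and 2 for 78 of 79, by a median of 0.38. The exception, NDUFS1, an iron-sulphur subunit at the electron entry of complex I, was at 17.68, 18.44 and 17.57 FPKM under TGF-β and at 18.01, 18.02 and 17.55 with LIG, a difference of -0.04 for LIG replicate 3. Over all genes tested the same medians were 0.03 and 0.04, with 57.2% and 57.0% of genes above 0. The 2 libraries held the 2 highest values of the 6 for 77 of the 79 subunits (97.5%), against 27.3% of all genes, and LIG replicate 3 was the highest for 75 (94.9% against 37.2%). Without these 2 libraries, LIG replicates 1 and 2 differed from TGF-β replicates 1 and 3 by a median of 0.01 over the nuclear subunits, with 52 of 79 above 0, and by 0.02 over all genes. Set against each other, LIG replicate 3 was above TGF-β replicate 2 by a median of 0.14, for 75 of 79.

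The excess was seen in every complex and was smallest in complex II. That complex has only 4 subunits, with a median length of 3754 bases, against 1313, 1573, 1049 and 1119 for complexes I, III, IV and V. Its subunits SDHB (1015 bases) and SDHD (1469 bases) had an excess of 0.25 and 0.11 in LIG replicate 3. SDHA (6039 bases) and SDHC (13442 bases) had 0.17 and 0.04. The part of length in the small excess of complex II was not tested. The median excess of LIG replicate 3 over its group was 0.40 for complex I, 0.14 for complex II, 0.37 for complex III, 0.38 for complex IV and 0.38 for complex V, and it was 0.28 and 0.22 for the assembly factors of complexes I and II. For TGF-β replicate 2 the values were 0.23, 0.16, 0.22, 0.24 and 0.22 for complexes I to V. Rescaling to a common total, which was tried after the data had been seen, left the direction in place: after scaling each library to the same summed level (TPM) the median over the nuclear subunits was 0.14 in TGF-β replicate 2 (74 of 79 above 0) and 0.24 in LIG replicate 3 (75 of 79), while that over all genes was -0.05 and -0.09. For the mitochondrial genes the median was 0.07 in both libraries as deposited, and it turned to -0.02 and -0.07 after this scaling, so no direction is given for them as a class.

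**Figure D2:**
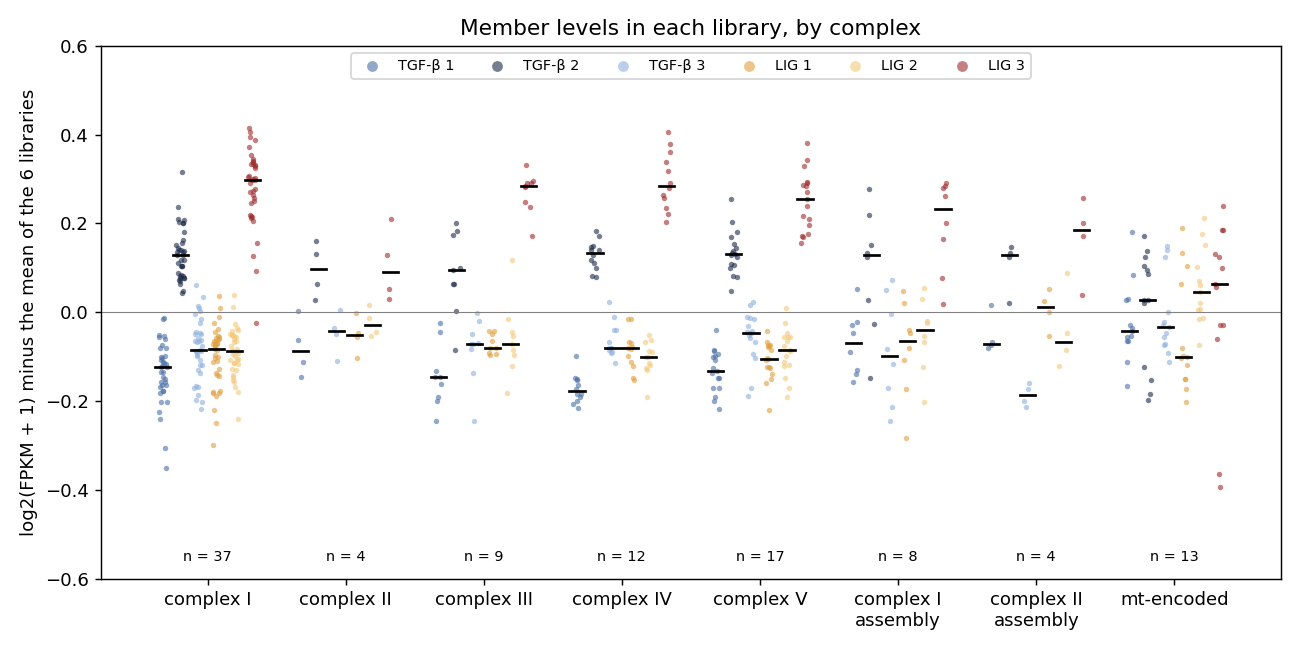
Level of each tested member in each library, as log2(FPKM + 1) minus the gene's mean over the 6 libraries, by complex, with 1 point per gene and a bar at the median of each library. The medians of TGF-β replicate 2 and of LIG replicate 3 sit above those of the other 4 libraries in every nuclear class. The mitochondrially encoded genes lie on both sides of 0 in all 6 libraries. LIG replicate 1 is the lowest library for ND1, ND2, ND3, ND4, CYTB, COX1, COX2 and ATP6, but not for COX3, ND4L, ND5, ND6 or ATP8.

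The level of a gene in these 2 libraries went with gene length, and the nuclear subunits are short. Tested nuclear subunits had a median length of 1240 bases (as recovered from the FPKM steps), against 4058 over all genes tested. Among genes outside the rule, the median excess of LIG replicate 3 over LIG replicates 1 and 2 was 0.24 for the shortest quartile (111 to 2421 bases), 0.09 for the next (2422 to 4058), -0.04 for 4062 to 6398 bases and -0.19 for 6400 bases and over. Of the other genes in the shortest quartile, 91.4% were above 0 in LIG replicate 3. For TGF-β replicate 2 the medians were 0.16, 0.07, -0.01 and -0.09. The nuclear subunits in the same 4 length classes, which held 60, 9, 3 and 7 of them, had medians of 0.39, 0.38, 0.17 and 0.26 in LIG replicate 3 and of 0.23, 0.23, 0.15 and 0.14 in TGF-β replicate 2. In each of the 4 classes, and in both libraries, the median of the subunits was above that of the other genes. At lengths of at most 1000 bases the 33 subunits were close to the 449 other genes, with medians of 0.41 and 0.34 in LIG replicate 3 and of 0.23 and 0.21 in TGF-β replicate 2.

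Across the 79 nuclear subunits the Pearson correlation of log2 length with the excess of LIG replicate 3 was -0.61 (Spearman -0.51), and with that of TGF-β replicate 2 it was -0.36 (Spearman -0.29). Over all 10695 genes the Pearson values were -0.67 and -0.56. These describe genes measured in the same libraries, and genes are not independent replicates. The 9 subunits over 5000 bases (ATP5F1A, NDUFA10, NDUFA5, NDUFA9, NDUFS1, NDUFV3, SDHA, SDHC and UQCRB) had a median of 0.19 in LIG replicate 3, and one of 0.14 in TGF-β replicate 2. The part of gene length in the levels of these libraries was not tested.

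**Figure D3:**
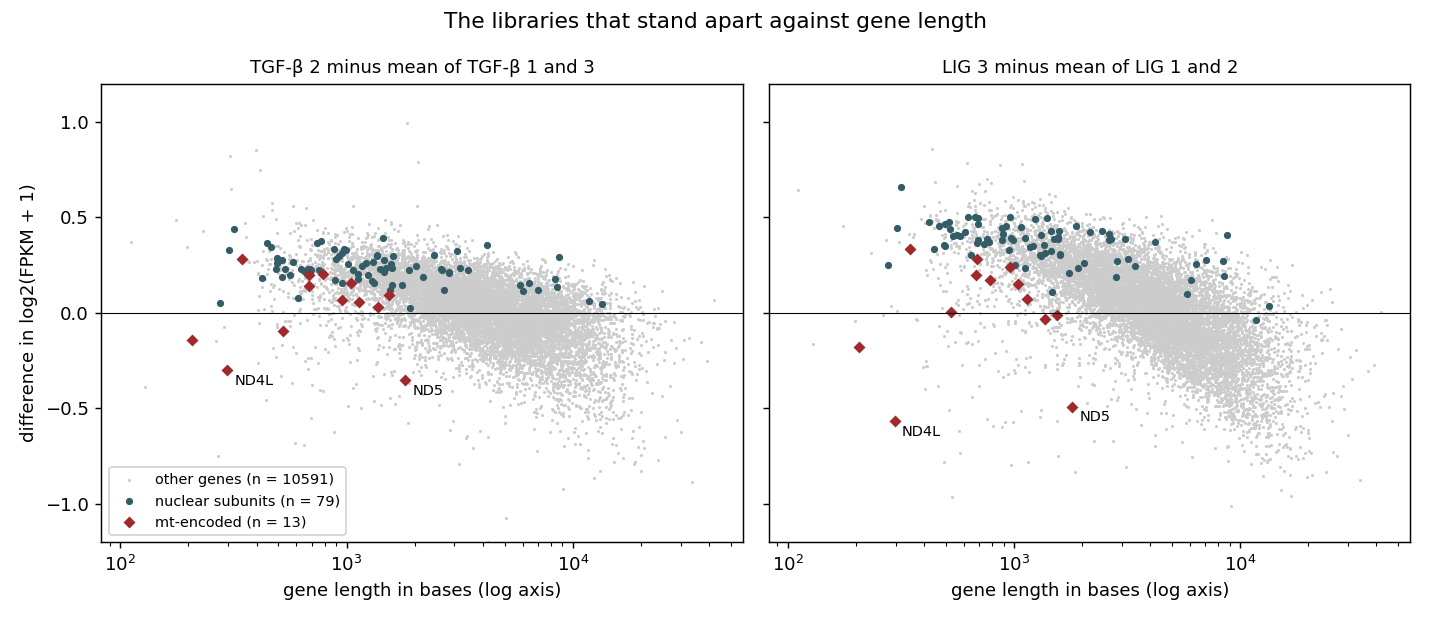
Difference in log2(FPKM + 1) between each library that stands apart and the mean of the other 2 libraries of its group, against gene length in bases on a log axis, with TGF-β replicate 2 on the left and LIG replicate 3 on the right. Other genes (grey, 10591) fall from above 0 at short lengths to below 0 at long ones, the 79 nuclear subunits (circles) lie mostly at the short end, and ND4L and ND5 lie below 0 among the mitochondrial genes (diamonds).

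Complex I takes electrons from NADH. Its nuclear subunits had levels from 4.91 FPKM (NDUFV3) to 273 FPKM (NDUFS6), with a median of 39.0. NDUFS6, an accessory subunit of the peripheral arm (chr5:1801400-1816605), was at 231.2, 295.7 and 257.9 FPKM under TGF-β and at 258.5, 245.0 and 350.0 with LIG. The groups overlapped, with both high libraries the ones that stood apart, and the difference was 0.11 ± 0.15 (SE; limma adjusted p = 0.942). NDUFV1, the flavoprotein that binds NADH, was at 81.74, 93.74 and 90.77 FPKM under TGF-β and at 77.96, 83.38 and 106.6 with LIG, a difference of 0.00 ± 0.12. The difference of NDUFS1 was likewise 0.00, with a standard error of 0.06. Of the accessory subunits NDUFS5 and NDUFA12, the means were 190.6 ± 23.5 and 130.1 ± 10.9 FPKM under TGF-β and 202.0 ± 40.0 and 136.4 ± 23.5 with LIG.

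NDUFC1, a small membrane subunit of complex I (chr4:139266880-139302551), had the smallest adjusted p of the nuclear subunits of this complex. It was at 13.92, 20.15 and 16.40 FPKM under TGF-β and at 17.88, 17.31 and 24.02 with LIG. TGF-β replicate 2 lay inside the range of the LIG libraries, and the difference was 0.22 ± 0.15 (limma adjusted p = 0.81). NDUFB4, of the membrane arm, differed by 0.14 ± 0.12. The largest excess of LIG replicate 3 over the other LIG libraries was in NDUFB1 (named after its values were seen), a membrane-arm subunit of 317 bases. It was at 53.08, 82.25 and 68.72 FPKM under TGF-β and at 55.26, 55.61 and 88.14 with LIG, an excess of 0.66.

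Complex II, succinate dehydrogenase, also serves the tricarboxylic acid cycle and is encoded by the nucleus alone. SDHA, the flavoprotein, was at 46.15, 50.50 and 47.07 FPKM under TGF-β and at 46.68, 46.74 and 52.84 with LIG, a difference of 0.02 ± 0.07. SDHB, the iron-sulphur subunit, had means of 48.6 ± 5.29 and 51.6 ± 5.79 FPKM, and of the membrane anchors SDHD had 60.3 ± 5.85 and 58.6 ± 2.60. SDHC, the other anchor and the longest subunit at 13442 bases, was the steadiest: it was at 7.314, 7.448 and 7.019 FPKM under TGF-β and at 7.286, 7.220 and 7.472 with LIG, and its interval ran from -0.13 to 0.15. SDHC lay at a lower level per length than SDHA, SDHB and SDHD in all 6 libraries. Fragments per library were 3651 to 3943 for SDHC, 10748 to 12528 for SDHA, 1762 to 2304 for SDHB and 3107 to 3809 for SDHD. By fragments SDHC was thus not the lowest, and its place by FPKM depends on the recovered length.

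Complex III passes electrons from ubiquinol to cytochrome c. UQCRC1, a core protein, was at 101.1, 117.2 and 110.4 FPKM under TGF-β and at 105.9, 108.0 and 132.1 with LIG, and UQCRFS1, the Rieske iron-sulphur protein, was at 22.59, 28.62 and 22.73 and at 23.39, 23.39 and 30.93. Their differences were 0.07 ± 0.10 and 0.07 ± 0.13, and both genes had overlapping groups. UQCRQ, a small membrane subunit, differed by 0.15 ± 0.13. UQCRHL (chr1:15807169-15809348), a near-identical intronless copy of the hinge protein gene UQCRH, was at 17.10, 16.35 and 14.51 FPKM under TGF-β and at 16.78, 18.96 and 21.41 with LIG. LIG replicate 1 lay among the TGF-β libraries, and the difference was 0.24 ± 0.10 (unadjusted p = 0.0439, limma adjusted p = 0.574). Reads of UQCRHL and UQCRH could be split in a way not given in the sources used here, and UQCRHL rests on 155 to 232 fragments, so its value is uncertain. UQCRH itself was at 96.2 ± 9.74 and 103 ± 15.9 FPKM.

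Complex IV reduces oxygen, and several of its nuclear subunits exist as isoforms used in different tissues. The common isoforms were expressed and the tissue-restricted ones were near 0. COX6B1 averaged 218.8 FPKM over the 6 libraries and COX6B2 0.7356, COX7A2 averaged 99.2 and COX7A1 0.177, and COX7B averaged 35.5 and COX7B2 0.017, the last with at most 1 fragment in a library. NDUFA4, a subunit of complex IV despite its name, was at 36.92, 46.83 and 41.82 FPKM under TGF-β and at 42.56, 41.05 and 50.35 with LIG. Its homologue NDUFA4L2, known as a hypoxia-induced gene, held 4 to 12 fragments in a library, at 0.1034, 0.2453 and 0.1236 FPKM under TGF-β and 0.2063, 0.08306 and 0.1016 with LIG. These 4 low genes were not tested. COX4I2, COX6A2 and COX8C were not analysed here.

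Of the common subunits, COX4I1 (chr16:85798633-85807044), which helps to set the response of the complex to ATP, was at 107.8, 126.3 and 112.2 FPKM under TGF-β and at 109.8, 111.4 and 155.7 with LIG. LIG replicates 1 and 2 lay within the TGF-β range, and the difference was 0.11 ± 0.14 (limma adjusted p = 0.937). COX6A1, the most abundant nuclear subunit of the complex, was at 236.1, 299.2 and 275.7 FPKM under TGF-β and at 244.0, 254.8 and 329.6 with LIG, a difference of 0.02 ± 0.14. COX5A, COX5B, COX6B1, COX7A2, COX7A2L (a factor of supercomplex assembly), COX7C and COX8A differed by between 0.01 and 0.14. The difference from TGF-β was above 0 for all 12 tested subunits, although their median was -0.05 without LIG replicate 3, and for all 12 the 2 highest libraries were LIG replicate 3 and TGF-β replicate 2, in that order.

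Complex V had the most abundant nuclear member, ATP5F1B, the catalytic beta subunit (chr12:56638175-56646068). It was at 278.1, 312.4 and 285.6 FPKM under TGF-β and at 286.6, 282.0 and 329.0 with LIG, with overlapping groups and a difference of 0.03 ± 0.09 (limma adjusted p = 0.979). ATP5F1A, the alpha subunit, was at 44.6 ± 3.20 FPKM under TGF-β and 45.0 ± 4.84 with LIG, a lower level per length than that of its partner ATP5F1B. ATP5F1A held 10254 to 12699 fragments in a library at a recovered length of 6401 bases, and ATP5F1B 18867 to 22722 at 1759 bases. ATP5IF1, which inhibits ATP hydrolysis by the synthase, was at 16.96, 20.52 and 17.83 and at 17.70, 16.53 and 23.80 FPKM. ATP5MC1, ATP5MC2 and ATP5MC3, which encode the same mature ring subunit, averaged 96.5, 28.0 and 28.2 FPKM over the 6 libraries and differed by 0.03, 0.03 and 0.01. At recovered lengths of 646, 2850 and 3430 bases, they held 2159 to 2838, 2741 to 3597 and 3341 to 4274 fragments in a library. By fragments ATP5MC1 was thus not the highest of them.

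The subunits ATP5PD and ATP5MG, of the stalk and the membrane part, were the next most abundant of complex V. ATP5PD was at 151.4, 166.1 and 163.4 FPKM under TGF-β and at 147.5, 145.0 and 196.5 with LIG, so that LIG held both the lowest and the highest values, and ATP5MG had means of 126.9 ± 10.8 and 133.1 ± 22.4 FPKM. ATP5ME, of the membrane part, had the smallest adjusted p of the complex: it was at 102.0, 129.0 and 102.7 FPKM under TGF-β and at 111.4, 112.8 and 152.9 with LIG, a difference of 0.17 ± 0.14 (limma adjusted p = 0.862). ATP5MJ, a small membrane subunit, differed by 0.09 ± 0.15. Exons of ATP5ME lie under those of MYL5 on the opposite strand over 61.6% of their length in GENCODE 29, and whether counting used strand is not given in the sources used here. ATP5F1E, the epsilon subunit (chr20:59025467-59032382), was too low to test, at 1.106, 0.6179 and 1.038 FPKM under TGF-β and 0.7311, 0.7358 and 0.8679 with LIG. Its recovered length was 3610 bases and 23.2% of its exons lie under TUBB1 on the opposite strand, and the part of these in the low value was not tested. ATP5MGL held at most 6 fragments in a library. Of the 104 members tested, 52 share some exon bases with another gene in GENCODE 29, and for 8 a gene on the opposite strand covers at least 20% of their exons.

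Assembly factors do not stay in the finished complexes. NDUFAF4, a factor of complex I assembly (chr6:96889313-96897881), was at 7.131, 7.498 and 6.302 FPKM under TGF-β and at 7.944, 7.833 and 9.534 with LIG. All 3 LIG libraries lay above all 3 TGF-β libraries, the only member of 104 for which the groups did not overlap, where 15.8% of all genes tested did not overlap (9.07% higher with LIG). Its difference was 0.24 ± 0.09, with an interval from 0.03 to 0.46 (unadjusted p = 0.0326, limma adjusted p = 0.52), and it is reported as not passing. NDUFAF2, the most abundant of these factors, was at 65.68, 78.54 and 61.94 FPKM under TGF-β and at 69.93, 70.75 and 87.58 with LIG, a difference of 0.14 ± 0.12. NDUFAF1 and NDUFAF8 differed by 0.06 and -0.03.

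For complex II, SDHAF2, which adds the flavin to SDHA, was at 23.98, 24.08 and 20.92 FPKM under TGF-β and at 24.63, 22.29 and 26.82 with LIG, a difference of 0.09 ± 0.09. SDHAF1 and SDHAF3, which help to place the iron-sulphur clusters of SDHB, differed by 0.11 and 0.07. With limma's library quality weights, which gave weights of 0.969, 0.285 and 6.035 to the TGF-β libraries and of 1.267, 3.418 and 0.138 to the LIG libraries, the members NDUFAF4 (adjusted p = 0.00809), UQCRHL (adjusted p = 0.0103), SDHAF4 (adjusted p = 0.0223) and NDUFAF2 (adjusted p = 0.0419) passed, all higher with LIG, where 17.7% of all genes tested passed. For each of these 4 members the lowest of the 6 values was in TGF-β replicate 3, the library of the highest weight. With both libraries left out, 0 of 104 members passed, against 4.65% of all genes. The smallest adjusted p was then 0.0589 (ATP5ME, difference 0.13), and 9 members had an unadjusted p under 0.05 (8.65%, against 20.4% of all genes).

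Each of the 13 mitochondrially encoded genes was more abundant per length than every nuclear member. The lowest mitochondrial value in any library was 492.1 FPKM (ND6) and the highest nuclear one 350.0 FPKM (NDUFS6). COX1, COX3 and COX2, the core of complex IV, averaged 5839, 4803 and 4139 FPKM, followed by ND4 (3689), ATP6 (2931), ND3 (2750), ND4L (2234), ND2 (2160), ND1 (2138), CYTB (2104), ATP8 (1402), ND5 (1095) and ND6 (537.3). ND6 is the only one encoded on the other strand. Whether counting used strand is not given in the sources used here, so the level of ND6 is uncertain. Neighbours in this order did not overlap between libraries at 5 steps (COX1 to COX3, ND4 to ATP6, CYTB to ATP8, ATP8 to ND5 and ND5 to ND6) and overlapped at the other 7.

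Between the treatments the largest differences were 0.12 ± 0.09 for ND6 and 0.12 ± 0.12 for ATP8, with limma adjusted p of 0.843 and 0.902. ND6 was at 515.8, 492.1 and 535.9 FPKM under TGF-β and at 611.3, 509.1 and 559.7 with LIG, and the groups overlapped. COX1 was at 5959, 6197 and 5647 FPKM under TGF-β and at 5428, 6089 and 5716 with LIG, a difference of -0.05 ± 0.13. CYTB, the only mitochondrial subunit of complex III, was at 2053, 2144 and 2072 and at 1963, 2207 and 2187 FPKM. The remaining genes differed by between -0.07 (ND5) and 0.05 (ND1), and the groups of all 13 overlapped.

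Within the mitochondrial set, the libraries differed gene by gene. ND4L, a membrane subunit of complex I (chrM:10470-10766), was at 2343, 1947 and 2451 FPKM under TGF-β and at 2423, 2560 and 1681 with LIG. ND5, a proton-pumping subunit (chrM:12337-14148), was at 1230, 945.3 and 1183 and at 1166, 1204 and 842.5 FPKM. For both, TGF-β replicate 2 and LIG replicate 3 were the 2 lowest libraries, by 0.30 and 0.57 (ND4L) and by 0.35 and 0.49 (ND5) on the log2 scale below the rest of their group, and they had the lowest deviations of the 13 in both. Both stayed below 0 in these libraries under 4 other scalings. ND3 was the opposite, at 2531, 3078 and 2530 FPKM under TGF-β and at 2427, 2707 and 3228 with LIG, and COX2 was at 3973, 4534 and 3917 and at 3586, 4135 and 4690. The 2 libraries held the 2 highest values for 6 of the 13 genes. Across the 13 genes the Pearson correlation between the deviations of the 2 libraries was 0.95, and that of log2 length with either was 0.08 (TGF-β replicate 2) and 0.06 (LIG replicate 3).

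**Figure D4:**
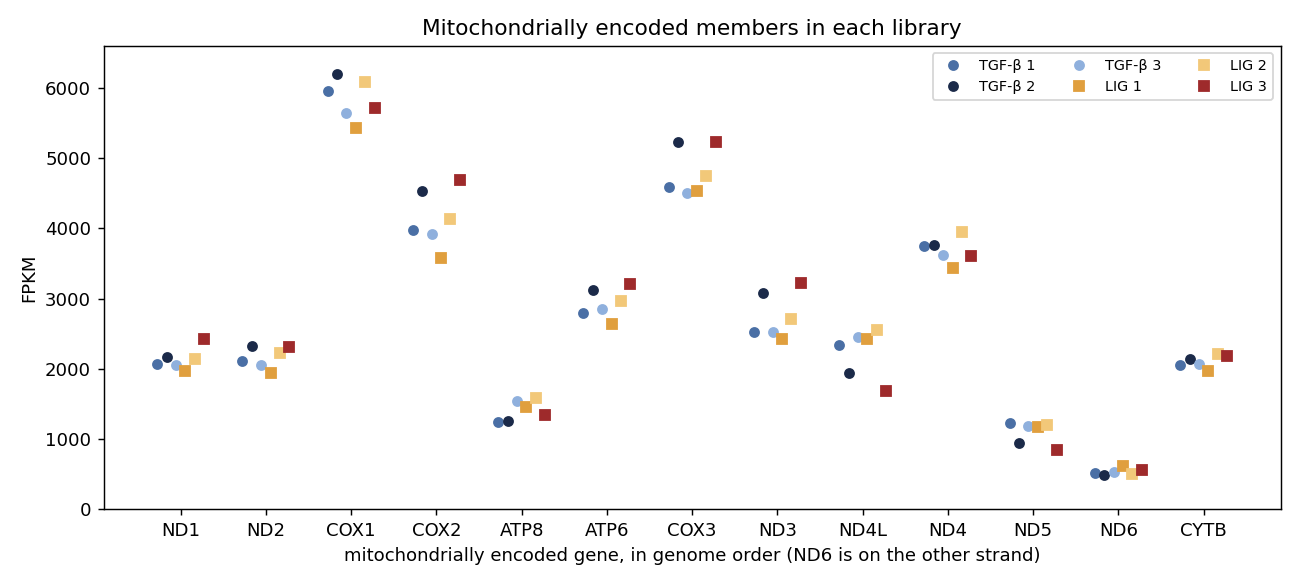
FPKM of the 13 mitochondrially encoded genes in each library, in the order of the genome, with circles for TGF-β and squares for LIG. TGF-β replicate 2 and LIG replicate 3 are the lowest 2 libraries for ND4L and ND5 and the highest 2 for ND3, COX2 and COX3.

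Ratios within a library do not depend on scaling to its total, and 5 of 6 computed show the same libraries apart. They reuse the FPKM values above, where ND4L, ND5, ND3 and COX2 already deviated in these libraries. The count of 5 is therefore no separate evidence. ND4L and ND4 are translated from 1 mRNA and their reading frames overlap, and the same holds for ATP8 and ATP6, so these pairs are shown at their overlaps. The sequences are of the mitochondrial genome as in the GENCODE 29 transcripts (GRCh38, plus strand, 5′ to 3′), with the bases shared by both genes in capitals: 46 bases for ATP8 and ATP6, or 22.2% of ATP8, and 7 bases for ND4L and ND4, or 2.36% of ND4L.
end of ATP8, start of ATP6 (chrM:8483-8572): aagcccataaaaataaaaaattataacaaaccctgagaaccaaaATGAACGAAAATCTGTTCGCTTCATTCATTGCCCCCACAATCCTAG
end of ND4L, start of ND4 (chrM:10707-10766): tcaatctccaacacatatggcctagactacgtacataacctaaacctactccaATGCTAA

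The ND4L to ND4 ratio of FPKM was 0.624, 0.518 and 0.678 with TGF-β and 0.705, 0.647 and 0.466 with LIG. For ATP8 to ATP6 it was 0.445, 0.402 and 0.538 and 0.554, 0.532 and 0.418. Both ratios were lowest in TGF-β replicate 2 and LIG replicate 3. How fragments in a shared stretch were assigned is not given in the sources used here, and the recovered length equalled the annotated length for 13 of 13 genes. ND5 to ND4, which do not overlap, had ratios of 0.328, 0.252 and 0.327 and of 0.339, 0.304 and 0.233, again lowest in these libraries. The COX2 to COX1 ratio was highest in them, at 0.667, 0.732 and 0.694 with TGF-β and 0.661, 0.679 and 0.821 with LIG, and so was ND3 to ND4, at 0.674, 0.819 and 0.700 and at 0.706, 0.684 and 0.894. The ND6 to ND5 ratio was 0.419, 0.521 and 0.453 and 0.524, 0.423 and 0.664, with LIG replicate 1 above TGF-β replicate 2, so these libraries were not its 2 extremes. For each of the 6 ratios the LIG and TGF-β groups overlapped.

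Nuclear genes of respiration are known targets of NRF1, the ETS factor GABP, YY1 and the estrogen-related receptors. The RefSeq promoters of the nuclear coding members (GRCh38.p14, 250 bases before to 50 after the start) were searched on both strands. Of the 97 members, 79 were matched by symbol (68 subunits and 11 assembly factors). The palindrome bound by NRF1 was in 5 (6.33%, against 1.36% of 27305 promoters and 2.43% of those of genes tested). AAGATGGCG, for YY1, was in 8 (10.1%, against 1.85% and 4.44%), CCGGAAG, for ETS factors, in 23 (29.1%, against 10.7% and 21.1%), and TCAAGGTCA, for estrogen-related receptors, in 1 (1.27%, against 0.359% and 0.16%). Among the 68 subunits alone the counts were 4, 8, 20 and 1. In all, 33 promoters held at least 1 of the 4 motifs and 46 held none, and 2 held both the YY1 and the ETS letters, which did not overlap in either. These matches describe letters in a window, and no factor's binding was measured. Shown are the 60 bases around the first match, 5′ to 3′ on the gene's strand and upstream of the gene, for the member of highest level in complexes I, III and V with such a window, with the matches in capitals, reverse complements (CTTCCGG) included.
NDUFB4, NRF1 (chr3:120596152-120596211, plus): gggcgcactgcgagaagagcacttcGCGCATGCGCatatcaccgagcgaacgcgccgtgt
UQCR11, ETS, 2 matches (chr19:1605547-1605606, minus): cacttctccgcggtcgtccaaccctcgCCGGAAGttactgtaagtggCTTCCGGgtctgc
ATP5PD, ETS (chr17:75047038-75047097, minus): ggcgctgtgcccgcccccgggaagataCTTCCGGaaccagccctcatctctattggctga

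The pathway around the complexes was described by 9 gene lists from general knowledge, 220 tested genes in all. None passed in limma in either direction (0.692% of all genes tested did), 6 had an unadjusted p under 0.05 (2.73%, against 8.41% of all genes), and limma voom gave 0 passing, against 0.72%, with 7 at an unadjusted p under 0.05. The median difference of LIG from TGF-β was 0.06 over 23 other subunits and electron carriers, 0.02 over 12 further complex I factors, 0.10 over 6 complex III factors, 0.05 over 28 complex IV factors and 0.06 over 4 complex V factors. It was 0.04 over 25 genes of mitochondrial transcription and biogenesis, 0.03 over 19 tricarboxylic acid cycle genes, 0.07 over 26 carrier and import genes and 0.07 over 77 mitochondrial ribosomal proteins, beside 0.03 over all genes. In LIG replicate 3 against its group, the median was 0.32 for the ribosomal proteins and 0.28 for carriers and import, and between 0.05 and 0.22 for the other 7 lists.

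Among single genes of these lists, the smallest p was that of UCP2, an uncoupling protein homologue and carrier, at 8.403, 7.253 and 7.785 FPKM under TGF-β and 6.289, 6.143 and 6.659 with LIG. Its 3 LIG values were below all TGF-β values, as in 6.73% of all genes, and the difference was -0.26 ± 0.07 (limma adjusted p = 0.285). IDH2, the mitochondrial NADP-dependent isocitrate dehydrogenase, was at 20.23, 21.43 and 20.01 and at 17.16, 16.29 and 19.00 FPKM (difference -0.22 ± 0.07, limma adjusted p = 0.378). IDH3A, a subunit of the NAD-dependent enzyme of the cycle, was at 23.36, 23.66 and 22.80 and at 25.66, 26.22 and 27.06 (difference 0.17 ± 0.06, limma adjusted p = 0.414). The groups of UCP2, IDH2 and IDH3A did not overlap, and none passed. For IDH3A all LIG values were higher, as in 9.07% of all genes tested. ESRRA, a nuclear receptor that drives genes of respiration, was at 9.01 ± 0.302 FPKM under TGF-β and 10.9 ± 1.61 with LIG (limma adjusted p = 0.539). Its groups did not overlap either, with all LIG values higher. CYC1, the cytochrome c1 of complex III, was at 21.1 ± 2.27 and 24.0 ± 2.92 FPKM (limma adjusted p = 0.755), with overlapping groups.

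In the same fit, TIMM22, a translocase subunit for carrier proteins, was at 8.87 ± 0.256 and 10.5 ± 1.30 FPKM and MRPS2, of the small mitochondrial ribosomal subunit, at 14.5 ± 0.558 and 16.9 ± 1.55. Their limma adjusted p were 0.545 and 0.515, and for both genes all LIG values lay above all TGF-β values. The other genes named from the lists were COQ2 (-0.14), TMEM126A (0.19), TIMMDC1 (0.11), UQCC1 (0.15), BCS1L (0.15), CMC2 (0.15), COA6 (0.24), TMEM242 (0.16), TMEM70 (0.09), MTERF4 (0.13) and MRPL34 (0.23), with limma adjusted p between 0.638 (MRPL34) and 0.945 (TMEM70). Of these, only MTERF4 had groups that did not overlap, higher with LIG.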

How the data were processed

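RNA-seq of polyadenylated RNA gave 6 libraries, 3 in each group. The authors deposited FPKM values, as the column names state. Tools named in the submitters' processing notes are DESeq2, fastp and HISAT2 2.1.0, with GRCh38.p13 as the build and no roles given; the counting tool, annotation and use of strand are not given in the sources used here. Library totals were fitted from the smallest FPKM steps of low genes. For each gene the shortest length at which all its values gave whole fragments was then kept, which gave depth and gene length. Fragments were whole within 0.01 for 99.95% of values above 0, a share that the search itself favours. Fragments speak to counting error alone.

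The 10695 genes averaging at least 1 FPKM were tested as log2(FPKM + 1) in limma 3.58.1 (R 4.3.3), group only, with a mean-variance trend, two-sided, Benjamini-Hochberg adjusted at 0.05. The fit had 4 residual and 4.1 prior degrees of freedom. It was also run on simulated data with independent noise for each gene, which lack the deviations shared across a library that are seen here. All 6 libraries entered.

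The members and lists were chosen with earlier results of these data known. The text names all mitochondrial members, 3 of highest level and 2 of smallest p per nuclear class, fixed catalytic subunits, isoforms and regulators, and 2 genes per list. Named after their values were seen were NDUFAF3, NDUFB1, NDUFV3, SDHAF4, ATP5F1E, ATP5MGL, the ATP5MC genes, COX7B and COX7B2, with UQCR11 for its promoter and NDUFA10, NDUFA5, NDUFA9 and UQCRB for their length. Coordinates are GENCODE 29 (GRCh38). Alternatives were other pseudocounts, filters, scalings and weights, voom, a replicate block and left-out libraries. Further software was matplotlib 3.10.9, scipy 1.17.1, pandas 2.3.3, numpy 2.4.6 and Python 3.11.15.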

Additional observations from a re-analysis of the deposited data

How the results depend on the processing

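Of 10695 genes, 74 passed in the comparison as reported; 14 passed with no filter on low values, 1891 with library quality weights, and 497 without TGF-β replicate 2 and LIG replicate 3. Leaving out 1 library at a time gave 11 (without TGF-β replicate 3) to 93 (without LIG replicate 3), with 21, 29, 22 and 20 without TGF-β replicates 1 and 2 and LIG replicates 1 and 2. Members passing numbered 0, and 4 with library quality weights, and stayed at 0 when each library was left out. The median over the mitochondrial genes, 0.00 as reported, lay between -0.03 and 0.07 when each library was left out, the latter without LIG replicate 1. That over the nuclear subunits lay between -0.06 and 0.13, and the negative value was the one without LIG replicate 3. The cause was not tested. The 53 named members fitted gave 1059 values over 20 alternatives: 136 in 41 genes had the opposite sign without passing, and 3 passed, all with library weights. Deviations of same-numbered libraries correlated at 0.47, -0.57 and -0.34 across genes, and TGF-β replicate 2 correlated best with LIG replicate 3 (0.68). Deviations within a group sum to 0, so 1 library apart in each group largely sets these correlations. They cannot show whether replicate numbers paired the libraries. With the replicate number as a block, 22 genes and 0 members passed. The unadjusted 95% interval of a member reached a median of 0.28 to each side, and the size needed to pass after adjustment was not measured.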
